A study of Mus musculus with 6 samples.

Results

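The genes followed here mark monocytes and dendritic cells, and they are 10 of the 40808 genes in the count table: Ly6c2, Ccr2 and Csf1r for monocytes, Itgax, Zbtb46 and Flt3 for dendritic cells in general, Xcr1 and Clec9a for the type 1 conventional dendritic cell (cDC1), Cd209a for a monocyte-derived or type 2 conventional dendritic cell (cDC2), and Siglech for the plasmacytoid dendritic cell. They were a fixed set of symbols matched to Entrez gene identifiers, and all 10 were found. The libraries cover mRNA 3′ ends of mouse spleen, 3 without Dox (replicates 4, 5 and 6) and 3 with Dox (replicates 10, 11 and 12); the labels describe the RNA as coming from leukaemia cells in the spleens of bone marrow recipients. The title of the study places it in the control of NOTCH receptors by the UVRAG, ITCH and ESCRT proteins. The labels do not spell out Dox, and they give no dose, duration, transgene, promoter, strain, age or sex, so neither a difference in genotype between the groups nor an allele shared by both groups can be described. They also do not say that each library came from its own animal, so the p-values measure only the spread between these libraries, which may be technical.

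Monocytes are made in the bone marrow, leave it through the chemokine receptor CCR2 and depend for survival on CSF1R, the receptor for the cytokines CSF1 and IL-34. Dendritic cells arise from progenitors that need the receptor kinase FLT3 and its ligand. In the spleen the cDC1 takes up dead cells through CLEC9A and presents their antigens to cytotoxic T cells, the cDC2 presents antigen to helper T cells, and the plasmacytoid cell makes type I interferon in response to nucleic acids.

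Of the 10 markers, 8 were higher with Dox, 0 were lower, 1 (Csf1r) did not pass the threshold and 1 (Cd209a) had too few counts to be tested (edgeR quasi-likelihood test, Benjamini-Hochberg adjusted p under 0.05). All 9 tested markers had fold changes above 0, so 0 were lower at an unadjusted p under 0.05 either, and DESeq2 and limma-voom called 0 lower. The fitted log2 fold changes of the 8 ran from 1.34 for Ly6c2 to 5.95 for Siglech, and in each of the 8 every library with Dox was above every library without it. In the same fit 23.6% of 14110 tested genes were called higher and 22.1% lower, and 29.8% had all libraries with Dox above all others. Of the 9 tested markers, 5 (Ccr2, Xcr1, Clec9a, Flt3 and Siglech) met the filter on low counts only through the libraries with Dox. A gene that enters the test that way had to be higher with Dox, so their calls say little on their own. The other 4 (Ly6c2, Itgax, Zbtb46 and Csf1r) met the filter in both groups.

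**Figure D1:**
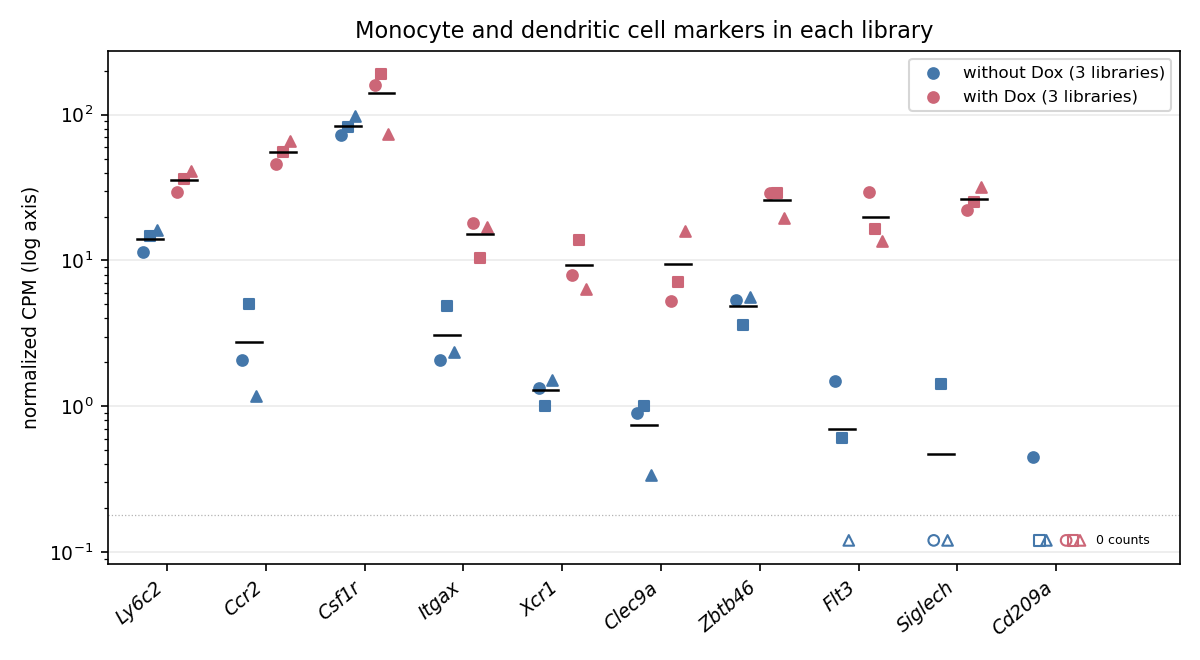
Normalized CPM (log axis; counts scaled to the TMM-adjusted library total) of the 10 markers in each of 6 libraries; circles, squares and triangles are replicates 4, 5 and 6 without Dox and 10, 11 and 12 with Dox, black bars are group means, and open symbols at the bottom are libraries with 0 counts. Groups are apart for 8 markers, overlap for Csf1r, and Cd209a is at or near 0 throughout.

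The libraries held 5541486 to 8725767 counts, and 3 counts, the floor used here, equalled 0.307 to 0.606 CPM, a limit that covers counting error only. The spread between replicates was larger with Dox, with a common biological coefficient of variation of 0.515 against 0.19 without Dox. Y-linked genes had 545 to 801 counts in the no-Dox libraries and 0 with Dox, and Xist had 193 to 324 and 3347 to 5669 counts, so these genes part the groups completely. The labels do not give sex, and Dox cannot be told apart from the sex of the cells, or of their donors, in any comparison below. Summed markers of other cells also moved. The 10 T cell markers summed to 1368 to 1475 CPM in the no-Dox libraries and 121 to 146 with Dox (9 of 10 lower), the 10 B cell markers to 34.6 to 42.2 and 2129 to 2366 (10 of 10 higher), and the 10 neutrophil markers to 52.5 to 69.6 and 2192 to 2330 (9 of 9 tested higher, with Ly6g at 0 in all libraries without Dox). Early progenitor markers summed to 8.28 to 10.3 and 174 to 202 CPM (7 of 8 higher, with Cd34 at 0 in all libraries without Dox), and macrophage markers to 660 to 803 and 746 to 1009 CPM, which overlapped (1 of 9 tested higher, 4 lower). Of the genes called higher, 5 B cell, 5 neutrophil and 6 early progenitor markers met the filter on low counts only through the libraries with Dox. The filter was met only through the no-Dox libraries by 1 T cell marker. In a bulk library, fewer cells of a type and less RNA per cell cannot be told apart, and the part of these other cells in the results below was not tested.

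**Figure D2:**
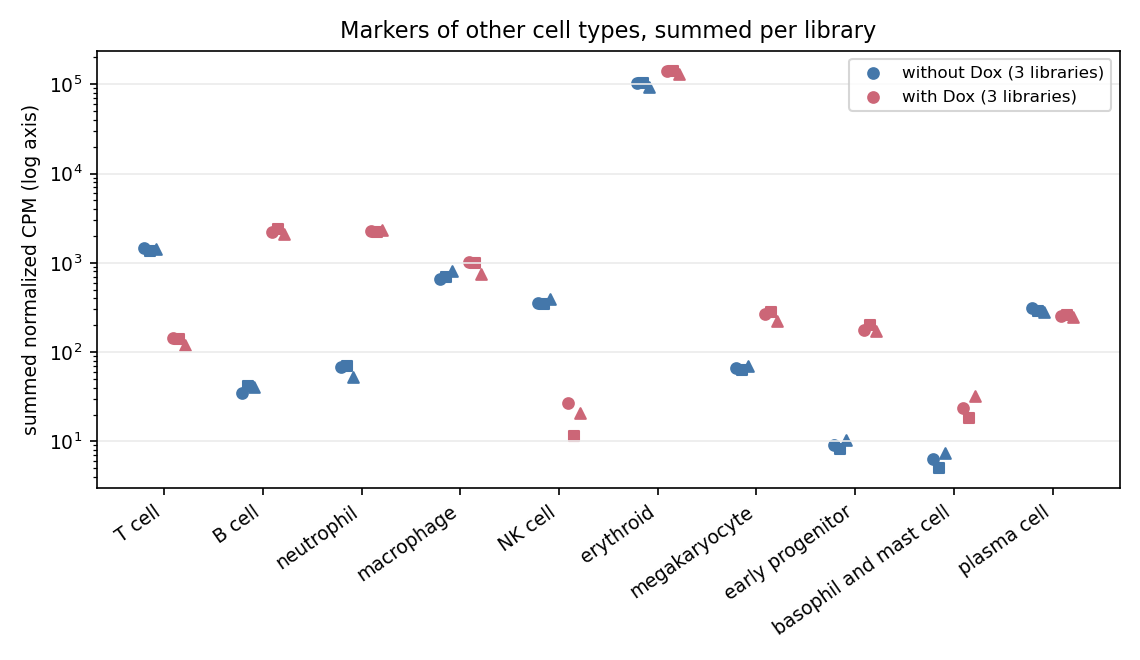
Summed normalized CPM (log axis) of the markers of 10 other cell types in each library; circles, squares and triangles are the replicates in the order 4, 5, 6 and 10, 11, 12. T cell sums are lower and B cell and neutrophil sums higher with Dox, while macrophage sums overlap.

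Ly6c2 encodes a surface protein of the LY6 family that is abundant on classical monocytes and is also found on neutrophils, some T cells and plasma cells. Its level was 11.4, 14.7 and 16.2 CPM in the no-Dox libraries and 29.6, 36.3 and 40.9 CPM in the Dox libraries. The groups did not overlap, and the relative spread within them was alike, 17.3% and 15.9% of the mean. The log2 fold change was 1.34 ± 0.27 (SE; edgeR adjusted p = 0.00257), the smallest among the 8 markers called. Ly6c2 has a close copy, Ly6c1, which endothelial cells and lymphocytes also use. Over the last 300 bases of the most alike pair of annotated transcripts (GENCODE M21), 96.0% of aligned positions were identical, so 3′ reads of the copies can be hard to separate. Ly6c1 was at 20.1, 21.8 and 15.9 CPM in the no-Dox libraries and 9.05, 18.4 and 16.4 CPM in the Dox libraries, overlapping groups with no call (log2 fold change -0.39 ± 0.34 SE, edgeR adjusted p = 0.384). Ly6c2 counts were 0.57, 0.676 and 1.02 times Ly6c1 counts in the no-Dox libraries, and 3.27, 1.97 and 2.48 times in the Dox libraries. How the authors treated reads that match both genes is not given in the sources used here.

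Ccr2, the chemokine receptor that lets monocytes leave the marrow, went from a low level to a high one. It was at 2.08, 5.05 and 1.18 CPM without Dox, from 46 counts in all, and at 46.1, 55.7 and 65.7 CPM in the Dox libraries, from 1389 counts. The lowest library with Dox was several times above the highest without it. The log2 fold change was 4.37 ± 0.45 (SE; edgeR adjusted p = 4.7e-05), and it was 4.14, 5.0 and 3.92 when replicate 4, 5 or 6 was left out. Counts of Ccr2 were 0.182, 0.342 and 0.0729 times those of Ly6c2 in the libraries without Dox, and 1.56, 1.54 and 1.61 times with Dox. The 3 ratios with Dox were nearly equal, and all lay above those without Dox. Some NK and T cells also use CCR2. The NK cell markers summed to 347 to 397 CPM in the no-Dox libraries and 11.4 to 26.6 CPM in the Dox libraries, but that fall is Gzma alone, a protease gene of cytotoxic lymphocytes at 340 to 394 CPM without Dox and at 0 with Dox. Eomes, a transcription factor of NK and memory T cells, rose by 3.88 ± 0.64 (SE) on the log2 scale (edgeR adjusted p = 0.000863), and Klrb1c was not called (adjusted p = 0.599). Eomes met the filter on low counts only through the libraries with Dox and had to be higher, so its call says little.

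Csf1r, the receptor kinase of monocytes and macrophages, was the most abundant of the 10 markers without Dox. Its level was 72.0, 82.1 and 98.5 CPM in the no-Dox libraries and 159, 190 and 73.2 CPM in the Dox libraries. Replicates 10 and 11 were above all libraries without Dox, whereas replicate 12 lay within their range. Its log2 fold change of 0.75 ± 0.31 (SE) missed the threshold (edgeR adjusted p = 0.074). Without replicate 12 it was 1.04 with an adjusted p of 0.000721, and over all 16 alternatives the adjusted p ran from 0.000721 to 0.281, with 7 of them under the threshold. Red pulp macrophages also depend on CSF1R, and of the 9 tested macrophage markers 4 were lower, 4 were not called and 1 was higher. That tally depended on the scaling, the filter and replicate 12: 4 were higher and 3 lower with library size only, 4 and 4 when replicate 12 was left out, and 3 and 3 with at least 10 counts in every library. Adgre1, the F4/80 antigen, fell by 1.68 on the log2 scale (adjusted p = 0.00786, not called when replicate 4 was left out), Cd5l by 1.81 (adjusted p = 0.00516) and the complement gene C1qb by 1.26 (adjusted p = 0.00237). C1qc fell by 0.52 (adjusted p = 0.0337), a call that held in 7 of 16 alternatives. Vcam1, Spic, Slc40a1 and C1qa were not called, with log2 fold changes of 0.33 to 0.72, although C1qa was called higher in 7 of 16 alternatives. The gene called higher was Marco, a scavenger receptor of the marginal zone, which rose by 3.88 (adjusted p = 1.59e-05). Csf1r is overlapped on the opposite strand by Hmgxb3, which had 75 to 98 counts in the no-Dox libraries and 164 to 320 with Dox and was itself called higher (log2 fold change 0.88, edgeR adjusted p = 0.0348). The strand setting of the counting is not given in the sources used here.

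Itgax encodes the integrin CD11c, carried by dendritic cells and also by some macrophages, NK cells and B cells. It was at 2.08, 4.84 and 2.36 CPM in the no-Dox libraries and 18.1, 10.4 and 16.8 CPM in the Dox libraries. The groups did not overlap, although replicate 11 was the low library with Dox and replicate 5 the high one without it. Itgax rose on the log2 scale by 2.30 ± 0.49 (SE; edgeR adjusted p = 0.00354).

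Zbtb46 encodes a transcription factor that conventional dendritic cells carry and most monocytes and macrophages lack. It had 5.35, 3.63 and 5.57 CPM in the no-Dox libraries and 28.9, 29.1 and 19.6 CPM in the Dox libraries. Replicates 10 and 11 were nearly equal and replicate 12 lower, and all were above the libraries without Dox. This gave a log2 fold change of 2.41 ± 0.34 (SE; edgeR adjusted p = 0.000333). Over the 16 alternatives it ran from 2.18 to 2.72.

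Flt3, the receptor kinase of dendritic cell progenitors, was nearly absent without Dox. Counts were 10, 3 and 0 without Dox, equal to 1.49, 0.606 and 0 CPM, and 218, 160 and 104 with Dox, equal to 29.5, 16.4 and 13.6 CPM. The groups were far apart, and replicate 10 stood highest. The log2 fold change of 4.75 ± 0.77 (SE; edgeR adjusted p = 0.000771) rests on 13 counts on the low side; it was 6.02 with replicate 4 left out and 4.09 with replicate 6 left out. Early blood progenitors carry FLT3 too, and their summed markers were higher with Dox, as given above. Among these markers Kit was at 3.84 ± 1.32 CPM in the no-Dox libraries and 41.0 ± 10.4 CPM in the Dox libraries (SD, n = 3 each), and Mpo had 1 to 5 counts in the no-Dox libraries and 409 to 711 with Dox.

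Xcr1, the receptor through which cDC1 follow the chemokine XCL1, was at 1.34, 1.01 and 1.52 CPM in the no-Dox libraries and 7.97, 13.7 and 6.40 CPM in the Dox libraries. Every library with Dox was above every other one, with replicate 11 the highest. Xcr1 rose on the log2 scale by 2.84 ± 0.60 (SE; edgeR adjusted p = 0.00358). Xcr1 lies on chromosome 9 in a cluster of chemokine receptor genes (Xcr1 at chr9:123852315-123862029 on the minus strand, Ccr2 at chr9:124101950-124113557 on the plus strand, GRCm38 in GENCODE M21), 240 kb from Ccr2. The genes between and beside them did not all move with them. Ccr1 had a log2 fold change of 1.96 that did not pass the threshold (adjusted p = 0.107), Ccr3 was at 0.37 (adjusted p = 0.406), and Ccr9, a receptor of thymocytes and plasmacytoid dendritic cells, fell by 2.31 (adjusted p = 0.00128).

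Clec9a, the dead-cell receptor of cDC1, was at 0.892, 1.01 and 0.338 CPM in the no-Dox libraries and 5.27, 7.16 and 15.9 CPM in the Dox libraries. It was highest in replicate 12, the library in which Xcr1 was lowest among those with Dox. The ratio of Xcr1 to Clec9a counts was 1.51, 1.91 and 0.402 in replicates 10, 11 and 12, so these 2 markers of the same cell did not keep a fixed proportion. For Clec9a the log2 fold change was 3.64 ± 0.74 (SE; edgeR adjusted p = 0.00288), and 3.02 with replicate 12 left out. Clec9a is overlapped on its own strand by Clec1b, a platelet receptor gene with 41 to 89 counts in the no-Dox libraries and 104 to 248 with Dox, whose difference did not pass the threshold (adjusted p = 0.177).

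Siglech encodes a sialic-acid-binding lectin of plasmacytoid dendritic cells and of some macrophages. The no-Dox libraries had 0, 7 and 0 counts, and the Dox libraries 164, 247 and 246, or 22.2, 25.2 and 32.1 CPM. This was the largest fitted change among the 10 markers, with a log2 fold change of 5.95 ± 0.86 (SE; edgeR adjusted p = 0.000371). Its size depends on the 7 counts of replicate 5: the fit gave 10.6 without that library, where all remaining libraries without Dox are at 0 and the value is no bound, and 5.24 and 5.27 without replicates 4 and 6.

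Cd209a, a C-type lectin often used to mark monocyte-derived dendritic cells, had 3, 0 and 0 counts in the no-Dox libraries and 0 in all libraries with Dox. Both groups are at or under the floor, so no fold is given and the gene was not detectable beyond it in the libraries with Dox, with a floor of at most 0.405 CPM there. Among its near copies, Cd209c and Cd209g had 0 counts in all 6 libraries. Cd209b, used by marginal zone macrophages, had 2, 1 and 0 counts in the no-Dox libraries and 21, 87 and 14 with Dox, a ratio of normalized counts of 28.8 (95% counting interval 9.63 to 142; edgeR adjusted p = 0.0107, not called when replicate 5 was left out or with limma-voom). Cd209b met the filter on low counts only through the libraries with Dox and had to be higher.

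**Figure D3:**
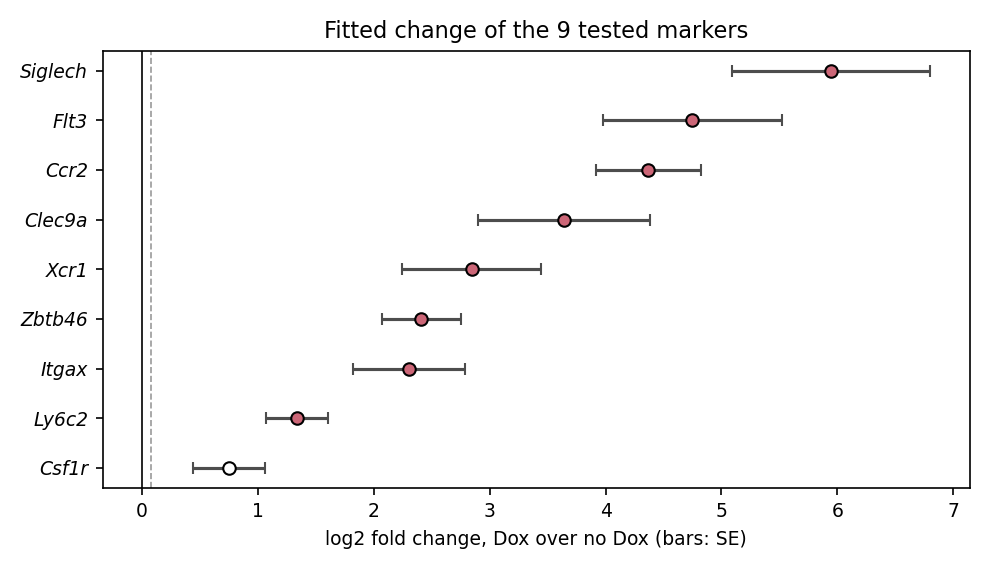
Log2 fold change (Dox over no Dox) of the 9 tested markers with SE bars; filled points passed an adjusted p of 0.05 and the open point (Csf1r) did not. The dashed line is the median of all tested genes, 0.07, and the 9 values run from 0.75 to 5.95.

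To show the DNA in front of markers that rose together, the promoter windows of a plasmacytoid, a monocyte and a cDC1 marker are given as RefSeq has them for GRCm38.p6 (250 bases before to 50 after the annotated start, on the gene's strand). Capitals mark GAGGAA, or TTCCTC where it lies on the other strand, the core that the myeloid factor PU.1 binds. The windows are chr7:55767934-55768233 (plus strand) for Siglech, chr15:75111922-75112221 (minus strand) for Ly6c2 and chr6:129408612-129408911 (plus strand) for Clec9a.
Siglech: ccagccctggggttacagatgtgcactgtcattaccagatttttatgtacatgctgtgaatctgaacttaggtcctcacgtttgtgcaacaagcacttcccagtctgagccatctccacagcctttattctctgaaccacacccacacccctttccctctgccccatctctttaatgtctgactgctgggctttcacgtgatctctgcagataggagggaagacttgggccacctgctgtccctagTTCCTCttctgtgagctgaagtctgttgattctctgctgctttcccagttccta
Ly6c2: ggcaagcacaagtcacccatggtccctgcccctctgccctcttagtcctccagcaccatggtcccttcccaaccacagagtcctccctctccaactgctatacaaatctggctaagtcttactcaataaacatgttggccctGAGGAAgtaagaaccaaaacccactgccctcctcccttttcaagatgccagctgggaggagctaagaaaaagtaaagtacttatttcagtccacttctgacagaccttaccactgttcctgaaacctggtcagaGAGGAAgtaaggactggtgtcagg
Clec9a: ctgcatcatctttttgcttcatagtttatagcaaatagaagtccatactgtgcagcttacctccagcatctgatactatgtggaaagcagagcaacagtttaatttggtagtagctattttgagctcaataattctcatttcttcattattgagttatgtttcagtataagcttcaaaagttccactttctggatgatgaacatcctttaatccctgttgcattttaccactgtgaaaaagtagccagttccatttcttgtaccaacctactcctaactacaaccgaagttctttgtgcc
The table of promoters held 9 of the 10 markers, and these letters occurred in 2 of the 9 (Siglech and Ly6c2), against 28.3% of all 32851 windows. The E-box CANNTG, which E proteins such as TCF4 bind, was in 9 of 9 and in 72.3% of all windows. TGTGGT (RUNX) was in 3 of 9 and 16.8%, TGANTCA (AP-1) in 2 of 9 and 7.81%, a joint ETS and IRF element (GGAA, any 2 bases, GAAA, which can overlap GAGGAA) in 1 of 9, Cd209a, and 2.72%, and a pair of IRF sites (GAAA, any 2 bases, GAAA) in 0 of 9 and 3.44%. Both strands were searched, and a match is a run of letters and not a bound site.

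The ligands of these receptors were compared next. Of 11 ligand genes 10 were tested, and 5 were higher and 1, Ccl8, lower with Dox, beside 23.6% and 22.1% of all tested genes. Ccl8 met the filter on low counts only through the no-Dox libraries and had to be lower, so its call says little. Flt3l, the growth factor for dendritic cells, was at 9.81, 11.1 and 3.38 CPM in the no-Dox libraries and 128, 91.0 and 84.3 CPM in the Dox libraries, a log2 fold change of 3.65 ± 0.39 (SE; edgeR adjusted p = 5.7e-05). Both Flt3 and its ligand were thus higher in all libraries with Dox. The ligands of CSF1R rose as well, although Csf1r itself did not pass the threshold. Csf1 was at 3.42, 3.83 and 3.21 CPM in the no-Dox libraries and 41.1, 51.3 and 8.36 CPM in the Dox libraries (log2 fold change 3.27 ± 0.60 SE, adjusted p = 0.00163, not called with limma-voom), and replicate 12, low for Csf1r, was also the low library for Csf1. Il34 went from 1.09 ± 0.80 to 11.9 ± 4.74 CPM (SD, n = 3 in each group; edgeR adjusted p = 0.00396).

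Among the chemokines listed for CCR2, none was called higher. Ccl8 was put on the list from its human pairing with CCR2, whereas the mouse protein is known to act on CCR8. It was at 17.2, 21.6 and 18.4 CPM in the no-Dox libraries and had 1, 0 and 0 counts in the Dox libraries. The ratio of normalized counts was 469 (without Dox over with Dox; 95% counting interval 83.5 to 18600; edgeR adjusted p = 1.85e-05). Ccl2 was at 1.78, 2.42 and 1.35 CPM in the no-Dox libraries and 2.03, 0 and 0.131 CPM in the Dox libraries (adjusted p = 0.443), Ccl12 at 2.80 ± 0.55 and 0.79 ± 0.89 CPM (SD, n = 3 in each group; edgeR adjusted p = 0.239), and Ccl7 was not tested, with at most 2 counts in any library. Xcl1, the ligand of XCR1 that NK and cytotoxic T cells make, was at 0.892, 1.01 and 1.86 CPM in the no-Dox libraries and 0.135, 2.76 and 2.09 CPM in the Dox libraries, which overlapped (adjusted p = 0.78). Among ligands of the CD11c integrin, the complement gene C3 rose by 2.29 ± 0.20 (SE) on the log2 scale to 215 ± 41.9 CPM (SD, n = 3; adjusted p = 1.53e-05 by edgeR), and Icam1 rose by 1.62 (adjusted p = 0.0119, not called when replicate 5 or replicate 6 was left out), while Icam2, at -0.57, was not called (adjusted p = 0.252).

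**Figure D4:**
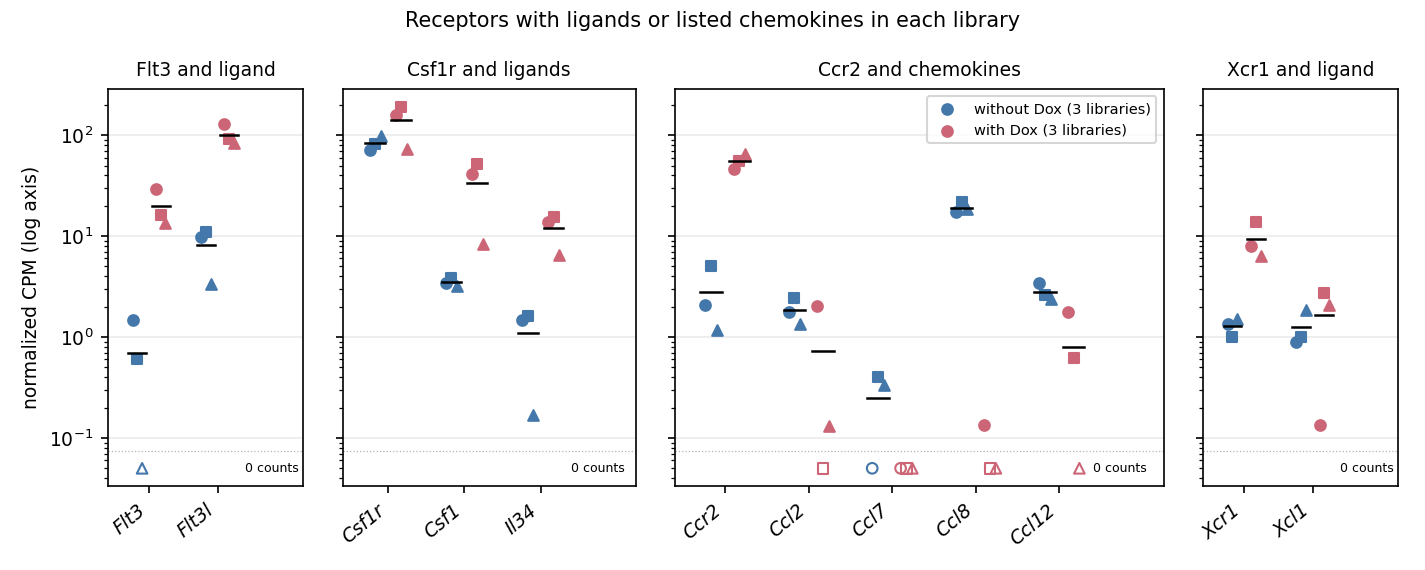
Normalized CPM (log axis) of 4 receptors, each at the left of its panel, and of the ligands or chemokines listed for it in each library; symbols as in the plot of the 10 markers. Flt3l, Csf1 and Il34 are higher with Dox, Ccl8 is at or near 0 with Dox, and Xcl1 overlaps.

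Wider lists of genes were read beside the 10 markers to see which cell types' genes shared their direction. Of 20 other monocyte genes 19 were tested, and 11 were higher and 4 lower with Dox (57.9% and 21.1%, beside 23.6% and 22.1% of all tested genes), with a median log2 fold change of 1.54 against 0.07 over all tested genes. The share called lower was near that of all genes. As with the markers, some genes called higher met the filter on low counts only through the libraries with Dox and had to be higher, so these shares are a description: 3 of the 11 monocyte genes (Chil3, Ms4a4c and Cd300e), 3 of 9 for cDC1 (Tlr3, Itgae and Rab7b), 1 of 4 for cDC2 (Cd7), 1 of 4 for plasmacytoid cells (Tlr7), 2 of 8 for mature dendritic cells (Cd40 and Il12b), 2 of 11 transcription factors (Klf4 and Spib) and 1 of 5 ligands (Il34). Genes of circulating monocytes were among those higher. Ms4a6c was at 31.7 ± 2.37 CPM in the no-Dox libraries and 106 ± 11.1 CPM in the Dox libraries (SD, n = 3 in each group; edgeR adjusted p = 5.04e-05). Cx3cr1, the fractalkine receptor, rose by 3.91 on the log2 scale (adjusted p = 6.01e-05), and Ms4a4c and Chil3 by 4.87 and 4.74. The summed level of the list went the other way, from 992 to 1021 CPM without Dox to 740 to 790 CPM in the Dox libraries, which includes the fall of an abundant gene that lymphocytes share. Plac8 was at 606 ± 9.42 CPM in the no-Dox libraries and 101 ± 39.8 CPM in the Dox libraries (SD, n = 3 in each group; edgeR adjusted p = 6.75e-05). Nr4a1 and Ace, which patrolling monocytes carry, were also lower (log2 fold changes -0.96 and -1.26, adjusted p = 0.0139 and 0.0245), whereas Treml4, of the same cells, was higher (1.54, adjusted p = 0.0218). Neither Nr4a1 nor Ace was called with scaling by library size only or when replicate 5 was left out, which left 2 monocyte genes rather than 4 called lower. Ace was also not called when replicate 6 was left out, nor Treml4 when replicate 4, 6 or 11 was left out.

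Of 15 other cDC1 genes 12 were tested, and 9 were higher and 1 lower (median log2 fold change 1.74), beside 23.6% and 22.1% of all tested genes. Batf3, the transcription factor that cDC1 cannot do without, was at 3.65 ± 2.28 CPM in the no-Dox libraries and 21.2 ± 2.31 CPM in the Dox libraries, groups that did not overlap (log2 fold change 2.55 ± 0.46 SE, edgeR adjusted p = 0.00135). Wdfy4, needed for cross-presentation and also made by B cells, rose by 4.08 on the log2 scale, and Tlr3, a receptor for double-stranded RNA, by 3.19 (adjusted p = 2.01e-05 and 0.00507). The lysosomal enzyme gene Ppt1 went from 32.7 ± 2.65 to 133 ± 29.7 CPM (SD, n = 3 in each group; edgeR adjusted p = 5.05e-05). Cd24a, which immature lymphocytes and red cell precursors also carry, was the gene called lower, from 448 ± 33.6 to 163 ± 10 CPM (SD, n = 3 in each group; edgeR adjusted p = 4.32e-05), and Ifi205 was not called (log2 fold change -0.44, adjusted p = 0.129).

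The cDC2 list moved less uniformly. Of 15 genes 13 were tested, and 4 were higher, 1 lower and 8 not called (median log2 fold change 0.71). In the main fit 30.8% of the tested genes were called higher, near the 23.6% of all genes. This nearness depended on the setting. With library size only 6 of 13 were higher, and 5 of 9 when each library needed 10 or more reads. Over all genes these settings gave 4257 of 14110 and 2740 of 10131. The other alternatives gave 3 or 4 higher. The median ran from 0.375 without replicate 6 to 1.02 with library size only. Sirpa, an inhibitory receptor of cDC2 and macrophages, rose by 1.42 ± 0.29 (SE) on the log2 scale (edgeR adjusted p = 0.00303), and Clec7a, the beta-glucan receptor dectin-1, by 1.74 ± 0.27 (adjusted p = 0.000517). Cfp was nearly equal in the groups, at 37.9 ± 2.07 and 39.6 ± 9.88 CPM (SD, n = 3 in each group; edgeR adjusted p = 0.831), and its sign changed between settings. Mgl2, a lectin of the cells that Cd209a marks, was at or under 2.23 CPM in every library and was not called (adjusted p = 0.922). The gene called lower was Tnfaip3, an inhibitor of NF-kB signalling, at 9.85 ± 1.52 and 2.77 ± 2.16 CPM (SD, n = 3 in each group; edgeR adjusted p = 0.0419), and its call was lost in 8 of 15 alternatives. Tnfaip3 met the filter on low counts only through the no-Dox libraries.

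Genes of the plasmacytoid dendritic cell did not follow Siglech as a group. Of 20 genes 16 were tested, with 4 higher, 3 lower and 9 not called (median log2 fold change 0.50). In the main fit the 25% called higher was close to the 23.6% of all genes. When each library needed 10 or more reads, 5 of 10 were higher, beside 2740 of 10131 over all genes. The other alternatives gave 4 to 6 higher, such as 6 of 17 without replicate 12. The median ran from 0.212 without replicate 10 to 0.893 without replicate 12. Tlr7, which senses single-stranded RNA, was at 1.68 ± 0.49 CPM in the no-Dox libraries and 23.4 ± 9.67 CPM in the Dox libraries (SD, n = 3 in each group; edgeR adjusted p = 0.000126), and Irf7, which drives interferon production, rose by 1.85 on the log2 scale (adjusted p = 0.00435). Ly6d rose from 84.5 ± 1.33 to 309 ± 62.5 CPM (SD, n = 3 in each group; edgeR adjusted p = 3.84e-05). Tlr7 and Ly6d are also made by B cells, whose summed markers were higher with Dox in every library. Bst2, the surface antigen tetherin, was at 35.2, 38.3 and 35.3 CPM in the no-Dox libraries and 39.2, 36.2 and 7.70 CPM in the Dox libraries, where replicate 12 alone was low (adjusted p = 0.54). Of the genes that thymocytes share, 2 were lower: Dntt, the terminal transferase, had 911, 658 and 969 counts in the no-Dox libraries and 7, 0 and 0 with Dox (adjusted p = 4.86e-06), and Ccr9 as given above. Upb1, also lower, had 0 counts in all libraries with Dox and was at least 8.9-fold lower against a floor of 3 counts per library. Dntt and Upb1 met the filter on low counts only through the no-Dox libraries and had to be lower, so their calls say little. Ctsl, an endosomal protease, was not called and its sign changed with scaling by library size only and with a filter of at least 10 counts in every library (38.5 ± 3.50 and 35.6 ± 3.69 CPM, SD, n = 3 in each group; adjusted p = 0.699 by edgeR).

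In the main fit, genes of mature, migrating dendritic cells were mostly higher. Of 15 listed 11 were tested, and 8 were higher and 1 lower (median log2 fold change 2.14), beside 23.6% and 22.1% of all tested genes. When replicate 4 or replicate 5 was left out, 14 genes were tested and 6 were called higher. Ccr7, the receptor that guides these cells and lymphocytes into T cell zones, was at 9.07, 11.3 and 9.12 CPM in the no-Dox libraries and 65.8, 55.6 and 24.7 CPM in the Dox libraries (log2 fold change 2.31 ± 0.37 SE, edgeR adjusted p = 0.000677). Fscn1, an actin-bundling protein of their dendrites, rose by 2.33 on the log2 scale (adjusted p = 0.000385). Il12b, a subunit of the cytokine IL-12, was at 0 in every no-Dox library and had 61, 126 and 30 counts in the Dox libraries, at least 16.1-fold higher against a floor of 3 counts per library (adjusted p = 0.000966). Samsn1 rose by 0.83 (adjusted p = 0.0233), a call lost when replicate 4, 5, 6 or 12 was left out. Marcksl1 was lower, from 92.2 ± 7.62 to 23.0 ± 9.27 CPM (SD, n = 3 in each group; edgeR adjusted p = 0.000413). Ccr7 and the higher gene Cd40 are B cell genes too.

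Of 20 transcription factors that direct these lineages 19 were tested, and 11 were higher and 3 lower with Dox (median log2 fold change 1.24), or 57.9% and 15.8% beside the 23.6% and 22.1% of all tested genes. Irf8, on which cDC1 and monocyte formation depend, was at 30.3, 38.2 and 26.5 CPM in the no-Dox libraries and 599, 574 and 502 CPM in the Dox libraries, the largest rise in CPM on the list (log2 fold change 4.15 ± 0.20 SE, edgeR adjusted p = 1.05e-06). Spi1, which encodes PU.1, was at 7.43, 6.46 and 1.69 CPM in the no-Dox libraries and 16.6, 38.0 and 27.9 CPM in the Dox libraries (log2 fold change 2.41 ± 0.52 SE, adjusted p = 0.00417). Tcf4, the E protein required by plasmacytoid dendritic cells, rose by 1.24 ± 0.15 (SE) to 381 ± 8.96 CPM (SD, n = 3; adjusted p = 0.000141 by edgeR), and Zeb2 and Klf4, used by monocytes and dendritic cells, by 3.41 and 3.50 (adjusted p = 3.5e-06 and 0.00142). Irf8, Spi1, Tcf4, Spib and Bcl11a are expressed by B cells as well. Id2, which cDC1 need and B cells lack, was at 40.9 ± 10.4 and 47.3 ± 7.90 CPM (SD, n = 3 each), overlapping groups (adjusted p = 0.489 by edgeR). The factors called lower were Ikzf1 (log2 fold change -0.73, adjusted p = 0.00702), Etv6 (-0.70, adjusted p = 0.0217) and Cebpb (-2.13, adjusted p = 0.00626). The calls of Ikzf1 and Etv6 were lost with scaling by library size only, and that of Etv6 also when replicate 4 or replicate 5 was left out.

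**Figure D5:**
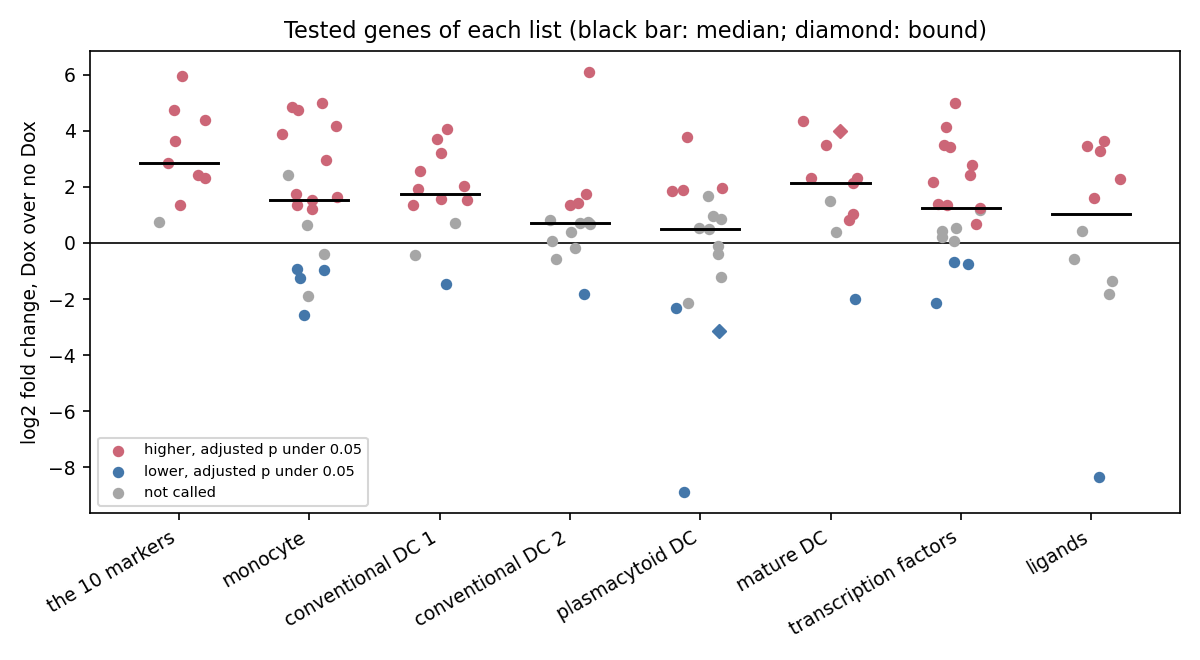
Log2 fold change (Dox over no Dox) of each tested gene in the 10 markers and 7 lists of related genes; colour gives the call at an adjusted p of 0.05, black bars are medians, and diamonds are genes with 0 counts in all libraries of a group, drawn at their bound. Medians run from 0.50 for plasmacytoid genes to 2.84 for the 9 tested markers, and the cDC2 and plasmacytoid lists hold mostly genes that were not called.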

How the data were processed

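The authors deposited a table of raw read counts by Entrez gene and library. STAR, featureCounts and GRCm38 are named in the submitters' processing notes, without versions; strand setting and treatment of multiply mapped reads are not given in the sources used here. Libraries were QuantSeq forward 3′ mRNA libraries per the labels' protocols, so 1 fragment is expected per transcript, and values were not scaled by length. All 6 columns matched a title, with 0 left over.

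Symbols came from RefSeq GRCm38.p6 (96.5% of 40808 IDs). Genes were tested in edgeR 4.0.16 (R 4.3.3): filterByExpr (minimum count 10, minimum total 15), TMM, quasi-likelihood F-test without covariates, Benjamini-Hochberg adjustment over 14110 genes, threshold 0.05. Standard errors were derived from the F statistic. Where a group had 0 counts, folds were set against 3 counts per library; where its libraries had 1 to 3 counts at most, an exact binomial 95% counting interval is given. Counts are reads, so both cover counting error only. On counts simulated for 14110 genes, with a true log2 change of 2 in some, 66.5% of the 185 changed genes that were tested passed, and so did 4 of 13368 unchanged genes. The simulation gave both groups the same spread and changed few genes, unlike these data, so its rates may not carry over.

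The markers, lists and tests were chosen with earlier results of these data known. Named are all 10 markers, the 3 genes of highest mean level in each list, up to 3 called against its majority, and close copies with at least 10 counts in a library; further genes (such as Batf3, Spi1, Il34, Xcl1, Cx3cr1, Bst2, Ccl2, Tlr7, Il12b and Id2) were named after their values were seen. Alternatives were RLE, upper-quartile or no scaling factors, other filters, DESeq2 1.42.0, limma-voom (limma 3.58.1), a threshold of 0.01, dropping genes of haemoglobin, antigen receptors and mitochondria, and leaving out each library. Results for a few genes that the naming rule covers are not reported here.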

Additional observations from a re-analysis of the deposited data

How the results depend on the processing

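No marker was called lower or changed sign in any of the 16 alternatives. The number called higher stayed between 8 and 9, also when each library was left out, except that at least 10 counts in every library left 4 markers to test, and all 4 were called. The 8 markers called kept their call wherever they were tested; only Csf1r gained one. Over all genes, 3324 were called higher, and 2200 at an adjusted p under 0.01, a stricter threshold. With no factor beyond the library size, the median log2 fold change over all genes was 0.38 instead of 0.07, and 64.3% instead of 51.6% of called genes were higher. No paired analysis was possible because replicates 4 to 6 and 10 to 12 have no number in common. With 3 counts worth up to 0.606 CPM, lower levels of Cd209a were not detectable.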

Other observations

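Relatives of the marker genes went in both directions. Of 25 close copies 16 were tested, and 7 were higher and 3 lower with Dox, beside 23.6% and 22.1% of all tested genes. Of the 7, 2 (Cd209b and Siglecg) met the filter on low counts only through the libraries with Dox and had to be higher. Itgad, 1 of the 3 lower, met it only through the no-Dox libraries and had to be lower. Among the integrins related to Itgax, Itgam, which encodes CD11b of monocytes and neutrophils, was at 2.83 ± 0.91 CPM in the no-Dox libraries and 51.2 ± 8.25 CPM in the Dox libraries (SD, n = 3 in each group; edgeR adjusted p = 8.8e-06). Itgal, the integrin of lymphocytes, fell by 1.36 on the log2 scale (adjusted p = 0.00442), and Itgad, of splenic macrophages, fell by 2.53 (adjusted p = 0.0274). The call of Itgad was lost when any 1 of the no-Dox libraries was left out. Among the receptor kinases related to Flt3 and Csf1r, Pdgfra of stromal cells rose by 1.99 (adjusted p = 0.00131), while Pdgfrb fell by 0.83 (adjusted p = 0.0277), a call lost with scaling by library size only, and when replicate 4, 5 or 10 was left out.

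Siglecg, an inhibitory lectin of B cells, was at 0.56 ± 0.57 CPM in the no-Dox libraries and 25.3 ± 8.52 CPM in the Dox libraries (SD, n = 3 in each group; edgeR adjusted p = 7.68e-05). Siglece and Cd33, myeloid members of the family, were not called (adjusted p = 0.584 and 0.0666). Ly6a, the stem cell antigen SCA-1, rose from 21.3 ± 2.08 to 117 ± 2.42 CPM (SD, n = 3 in each group; edgeR adjusted p = 6.69e-06), in contrast to Ly6c1.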
